A study of Homo sapiens with 45 samples.

Results

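The mitochondrial ribosomal protein genes are the nuclear genes whose products build the ribosome inside mitochondria. They were taken as every protein-coding gene in the count table with a symbol of the form MRPL or MRPS followed by a number, together with DAP3, and pseudogenes were left out. The rule used no measured value and found 79 members among 64485 genes. By protein, 51 belong to the large subunit and 27 to the small subunit. The remaining member, MRPS36, carries a symbol of the family but is known as a subunit of the 2-oxoglutarate dehydrogenase complex.

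The mitochondrial ribosome translates the mRNAs of the mitochondrial genome, all of which encode subunits of the respiratory chain and of ATP synthase. Its RNAs are made inside the organelle, while all of its proteins are encoded in the nucleus, made in the cytosol and imported. Some of these proteins have relatives in bacterial ribosomes and others are specific to mitochondria.

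RNA was measured in 15 established human breast cancer cell lines with 3 libraries each, 45 in all, from total RNA depleted of ribosomal RNA. All lines carried the label wild-type and no treatment was named. HCC38, HCC70, HCC1143, HCC1187, HCC1395, HCC1806, HCC1937 and BT-549 grew in RPMI 1640, BT-20 in EMEM and Hs578T in DMEM, all with glutamine added, and BT-20 and BT-549 also received insulin. MDA-MB-468, MDA-MB-157, MDA-MB-453, MDA-MB-231 and MDA-MB-436 grew in L-15, and MDA-MB-436 also received insulin and glutathione. Serum and antibiotics were common to every medium. Nothing in the labels ties the 3 replicates of a line to separate cultures, and p-values therefore reflect only the spread among these libraries, possibly a technical one.

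Libraries held 2312138 to 14653677 counts (median 6263573), and the thinnest was Hs578T replicate 2. All lines were labelled epithelial. The summed level of 7 epithelial markers (EPCAM, CDH1, KRT8, KRT18, KRT19, CLDN4 and ESRP1) lay between 1338 and 9381 CPM (counts scaled to library size with TMM factors) in 10 lines. It was 321 in MDA-MB-157, 267 in HCC1395, 165 in MDA-MB-436, 139 in Hs578T and 10.4 in BT-549, so the defining markers were low in these 5 lines. Summed fibroblast markers (DCN, LUM and PDGFRB) stood at 454 CPM in Hs578T and 425 in MDA-MB-157, against 0.971 to 19.6 in the other lines. Summed endothelial markers (PECAM1, CDH5 and VWF) reached 121 CPM in BT-20 and 21.6 in HCC1937 and stayed at or below 7.64 elsewhere.

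Short stretches upstream of annotated start sites of 9 members are shown first, because they show how differently the members begin. The levels below are counts per gene, and the use of single start sites was not measured. MRPS22 and MRPL34 have further windows that are not printed. The MRPL11 stretch lies inside the GENCODE 29 span of that gene (66435075-66466738). RefSeq (GRCh38.p14) gave 87 promoter windows, from 250 bases before to 50 bases after a start site, for 70 of the 79 members. Capitals mark 4 motifs that were searched on both strands: CACGTG (an E-box, the core bound by MYC and other factors), CCGGAAG (ETS family), GCATGCG (part of the NRF1 motif) and AGATGGC (YY1). MRPS10 and MRPL14, MRPL58 and MRPS7, and MRPL46 and MRPS11 are pairs whose levels moved together, MRPS22 was among the members with the narrowest range, MRPL11 and MRPL34 had the largest called decreases in MDA-MB-157 and HCC38, and MRPL47 had the largest called increase in HCC1937. MRPS18C, one of the MRPS18 paralogues, shows an E-box beside NRF1 letters. Only bases before the start site and in no GENCODE 29 exon are printed, which shortens some stretches. The stretches are chr6:42217866-42218065 (minus strand, MRPS10), chr17:75012470-75012669 (plus, MRPL58), chr3:139343756-139343955 (plus, MRPS22), chr3:179604655-179604689 (minus, MRPL47), chr4:83455857-83455931 (plus, MRPS18C), chr19:17305453-17305652 (plus, MRPL34), chr11:66438849-66439048 (minus, MRPL11) and chr15:88467420-88467452 (minus), which is the whole gap between the divergent genes MRPL46 and MRPS11.
MRPS10: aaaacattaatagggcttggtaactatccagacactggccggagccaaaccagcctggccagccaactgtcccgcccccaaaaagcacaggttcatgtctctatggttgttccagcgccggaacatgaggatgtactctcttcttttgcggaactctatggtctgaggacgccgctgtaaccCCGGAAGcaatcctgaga
MRPL58: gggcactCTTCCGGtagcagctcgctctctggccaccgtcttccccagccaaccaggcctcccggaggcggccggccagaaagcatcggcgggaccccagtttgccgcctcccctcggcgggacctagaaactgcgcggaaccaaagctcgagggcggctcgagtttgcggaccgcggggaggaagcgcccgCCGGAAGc
MRPS22: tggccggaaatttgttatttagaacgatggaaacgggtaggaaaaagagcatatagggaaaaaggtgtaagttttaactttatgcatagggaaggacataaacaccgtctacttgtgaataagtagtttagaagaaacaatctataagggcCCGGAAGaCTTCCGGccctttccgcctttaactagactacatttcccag
MRPL47: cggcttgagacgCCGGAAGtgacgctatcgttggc
MRPS18C: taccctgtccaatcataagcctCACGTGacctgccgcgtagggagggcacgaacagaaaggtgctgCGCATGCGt
MRPL34: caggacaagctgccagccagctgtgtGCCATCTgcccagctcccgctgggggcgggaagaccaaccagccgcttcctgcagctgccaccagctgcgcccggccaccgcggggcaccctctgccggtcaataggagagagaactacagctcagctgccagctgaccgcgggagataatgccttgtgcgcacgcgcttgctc
MRPL11: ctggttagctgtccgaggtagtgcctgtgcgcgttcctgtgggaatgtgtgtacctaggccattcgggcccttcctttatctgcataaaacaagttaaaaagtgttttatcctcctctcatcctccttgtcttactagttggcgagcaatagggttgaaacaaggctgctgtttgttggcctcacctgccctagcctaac
MRPL46 and MRPS11: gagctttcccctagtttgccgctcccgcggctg

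An ETS match lay in the windows of 30 of 70 members and a YY1 match in those of 23. Counted by window, ETS stood in 37.9% of the 87 windows against 10.3% of all 35116 promoters in the table and 12.8% of those of protein-coding genes. YY1 stood in 28.7% of the members' windows against 5.41% of all and 5.79% of protein-coding ones. The E-box was in 10.3% against 7.26% of all and 8.34% of protein-coding ones, and the NRF1 part in 8.05% against 3.91% and 4.63%. MRPS22 and MRPL58 each held 2 ETS matches in the stretch shown, on opposite strands, and MRPL11 held no match there. A match is only a run of letters and no binding was measured.

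The 9 tested members with an E-box had a median slope on MYC of 0.10 log2 units per log2 unit, and the 59 tested members with a window but no E-box had 0.15. The 29 with an ETS match had a median range between lines of 3.81-fold, and the 39 without had 4.30-fold. These are medians only, without a test.

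Of the 79 members, 78 had at least 1 count and 77 passed the filter on low counts. MRPS12, a small subunit protein with a bacterial relative, had 0 counts in all 45 libraries. MRPS18B had 1 count in all, in HCC70. MRPL45 had 145 counts, of which 55 came from HCC70, 41 from MDA-MB-157 and 40 from MDA-MB-453, with 0 to 2 in each other line. Pseudogenes named after MRPL45 held 1140 counts, more than the gene itself. MRPS12, MRPS18B and MRPL45 lie in stretches of the table that were nearly empty. Of the 10 genes on each side of MRPS18B, 18 of 20 had under 10 counts over all libraries, including the tubulin gene TUBB with 2 and FLOT1 with 0. Around MRPS12 it was 10 of 20, including ECH1 with 0, and around MRPL45 11 of 20, including the proteasome gene PSMB3 with 5. Farther out on the same chromosomes the counts were ordinary, such as 150185 for RPL23 on chromosome 17 and 59860 for PSMD8 on chromosome 19. The counts of MRPS12, MRPS18B and MRPL45 therefore give no usable level, and the cause of the gaps was not tested.

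MRPL12 (577 counts over all libraries), MRPL53 (685), MRPS24 (732) and MRPL38 (1358) were also thin. In GENCODE 29, 68.2% of the exon bases of MRPL12 are shared with another gene on the same strand, AC139530.2, 45.2% of those of MRPL53 with CCDC142 and 37.5% of those of MRPL38 with AC087289.3. Reads in shared exons can be left uncounted or assigned to either gene, and the authors' setting is not given in the sources used here. MRPL51 overlaps NCAPD2 on the opposite strand over 31.3% of its exon bases, and MRPS18A overlaps RSPH9 over 47.0%. Without a stated strand setting, reads of such pairs cannot be told apart.

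Per kilobase of exon, the highest levels averaged over lines belonged to MRPL51 (117 CPM per kb), MRPS35 (101), MRPS10 (95.1), MRPL3 (93.0) and MRPL39 (89.4). MRPS35, MRPL39 and MRPL51 are mitochondria-specific proteins, while MRPS10 and MRPL3 have bacterial relatives. DAP3, a GTP-binding protein of the small subunit that was also described as a cell death mediator, stood at 43.9 CPM per kb. The enzyme complex subunit MRPS36 was lower, at 6.95 CPM per kb.

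Summed over all members, the level in TMM-scaled CPM was highest in HCC38 and lowest in MDA-MB-157. The 3 HCC38 libraries held 5858, 6898 and 6288 CPM of member transcripts, and the 3 MDA-MB-157 libraries held 3558, 3270 and 3397. The means were 6348 ± 523 (SD, n = 3) and 3408 ± 144. All MDA-MB-157 libraries lay below every library of the other lines except Hs578T replicate 2, at 3556 CPM. As a plain share of all counts, which does not depend on TMM scaling, the members took 0.399% ± 0.008 in MDA-MB-157. The means of the other 14 lines ran from 0.475% in HCC1187 to 0.595% in HCC1937. On this scale MDA-MB-157 was again lowest, but HCC38, at 0.580%, was below HCC1937, MDA-MB-436 (0.594%), HCC1395 (0.589%) and HCC1143 (0.587%), and Hs578T replicate 2 stood at 0.513%. The number of genes with any count ran from 27967 to 40272 per library. Within a line, the library with the most such genes often held the lowest sum. In BT-20, 36485 genes went with 4699 CPM and 30168 with 5658, but in MDA-MB-468 the most genes, 34398, went with the highest sum, 5452. Means were 35420 genes in MDA-MB-157 and 36740 in MDA-MB-436, which held 5461 CPM. The part of this trait in the sums was not tested. In bulk libraries, fewer cells that express a gene and less RNA per cell cannot be told apart.

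**Figure D1:**
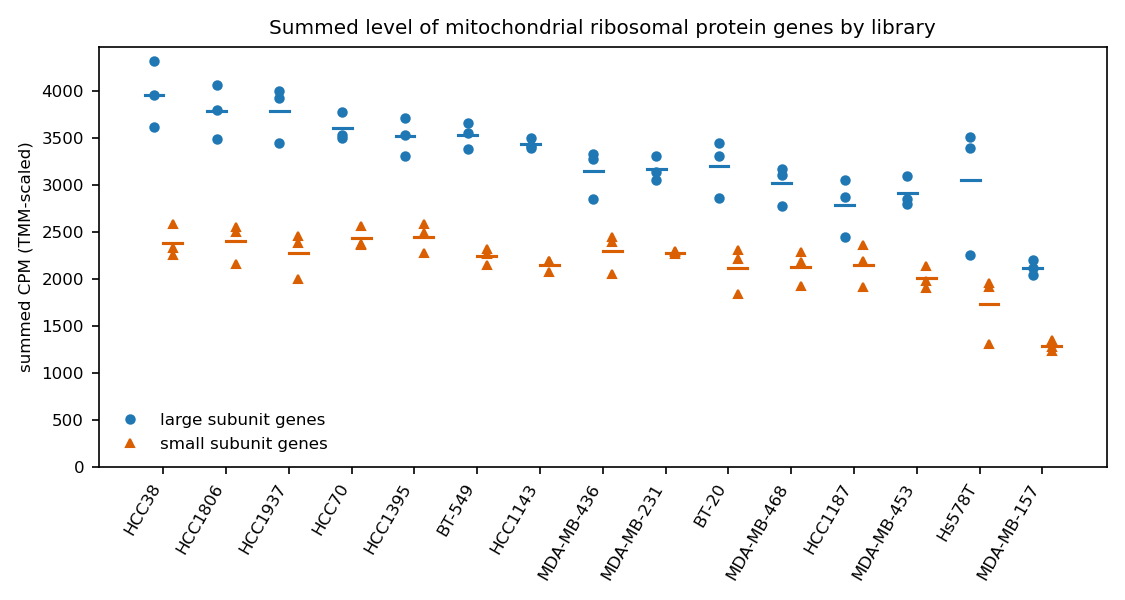
Summed CPM (TMM-scaled) of large subunit genes (circles) and small subunit genes (triangles) in each of the 45 libraries, with lines in order of the total; bars are means of 3 libraries. MDA-MB-157 is at the low end for both subunits, with means of 2117 and 1283 CPM, and 1 Hs578T library reaches down to it.

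The 2 subunits were not in a fixed ratio. Small subunit transcripts amounted to 0.568 ± 0.013 (SD, n = 3) of large subunit transcripts in Hs578T and to 0.772 ± 0.009 in HCC1187. The mean log2 level of the large subunit genes, each scaled to the same spread over lines, correlated with that of the small subunit genes over the 15 lines with Pearson r = 0.771 and Spearman rho = 0.714. The points share libraries and scaling.

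The first comparison asked how the members differ among the lines. Every one of the 77 tested members differed among the 15 lines at an adjusted p under 0.05 in the edgeR quasi-likelihood test. Of all 20587 genes tested, 98.2% did, so this count says little about the members. The median ratio of the highest to the lowest line was 4.18-fold for the members, 6.77-fold for all genes, 3.64-fold for 75 cytosolic ribosomal protein genes and 3.29-fold for 34 nuclear subunits of complex I.

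By class, the median ratio was 3.11-fold for the 10 tested small subunit members specific to mitochondria and 4.55-fold for the 15 with bacterial relatives. In the large subunit it was 4.39-fold for 21 mitochondria-specific members and 3.89-fold for 30 with bacterial relatives. The narrowest ranges belonged to MRPL32 (2.12-fold, from 63.7 ± 3.3 CPM in HCC1937 to 135 ± 10 in HCC70), MRPL42 (2.19-fold), MRPL35 (2.23-fold) and MRPS22 (2.32-fold). DAP3 ranged 2.85-fold, from 106 ± 21 CPM in Hs578T to 300 ± 8.0 in HCC70 (SD, n = 3), and was called in no line.

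Each line was then set against the mean of the other 14, and a member was called at an adjusted p under 0.05 and a difference of at least 1 log2 unit. Over 1155 combinations of member and line, 57 were higher and 67 lower, together 10.7%. Of the 57, 3 belong to MRPL45, which has no usable level. Over all genes 16.2% of combinations were higher and 12.5% lower. Without the limit on size, 376 were higher and 337 lower, against 30.4% and 23.9% of all combinations. No line was called for 18 members. The matching share of all genes was not computed, so this number cannot be read as many or few.

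**Figure D2:**
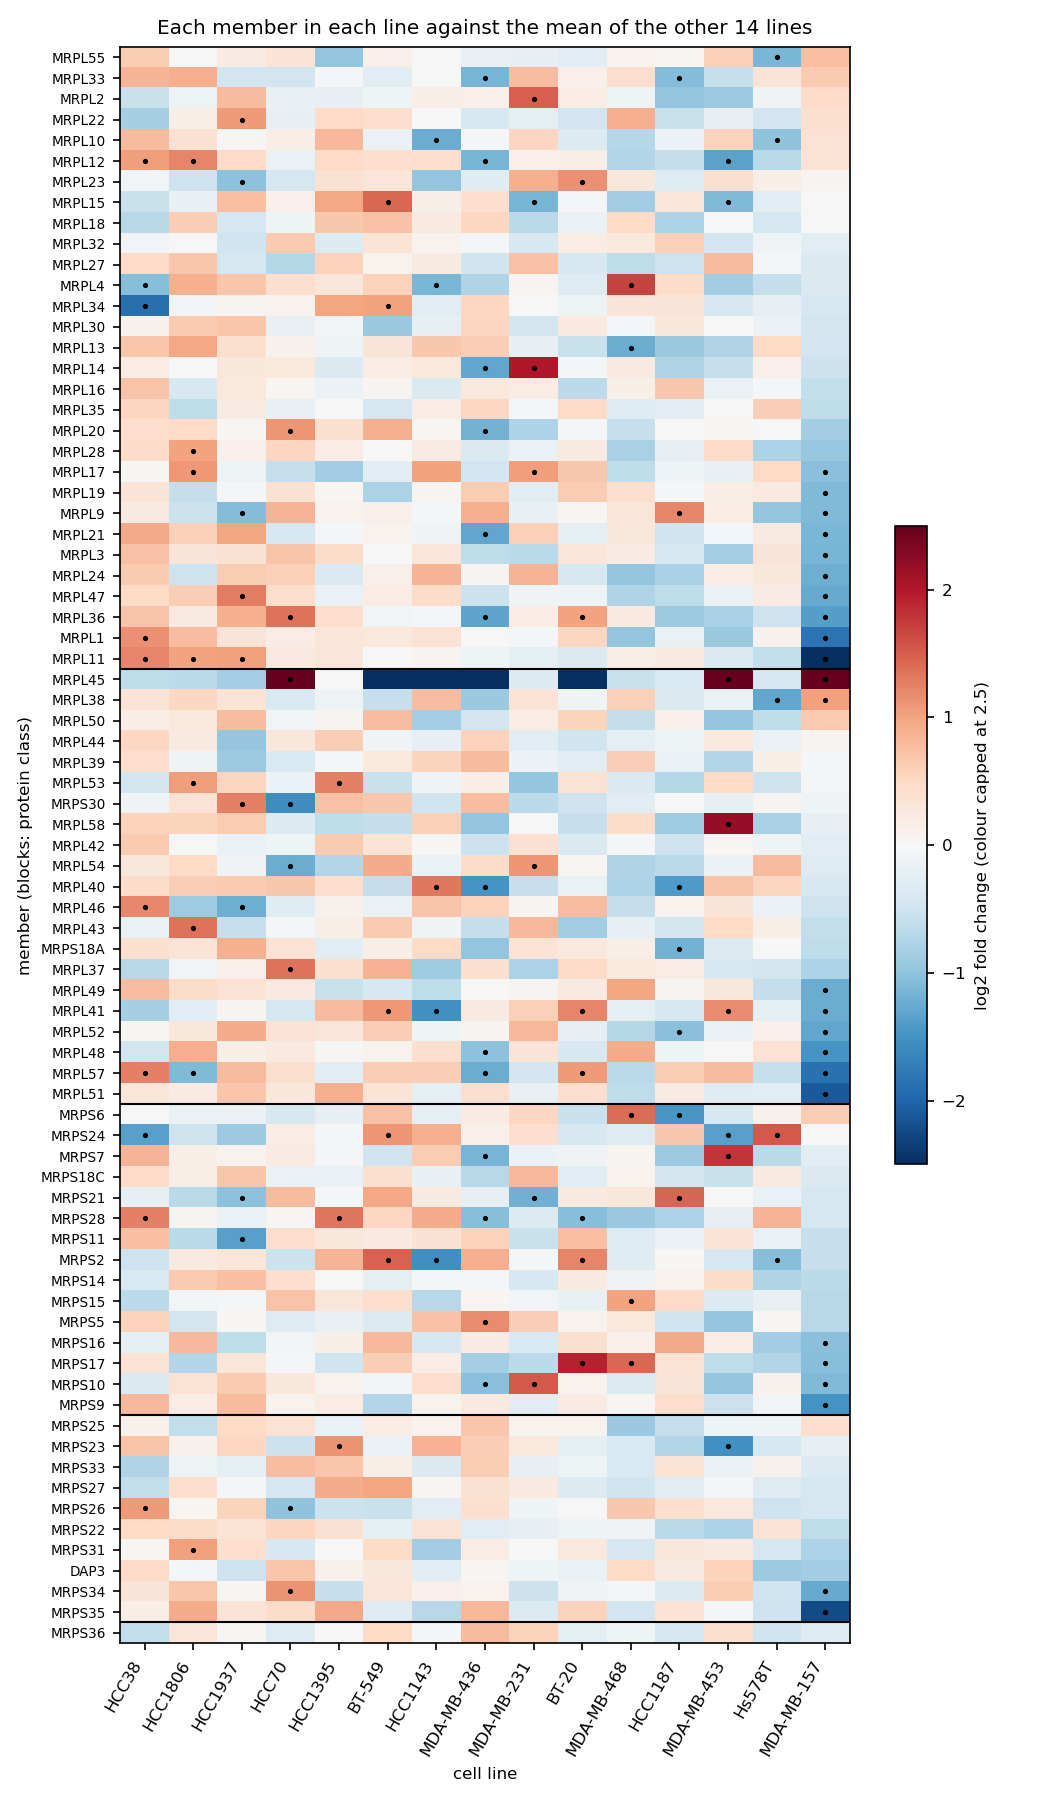
Log2 fold change of each of the 77 tested members (rows, in blocks by protein class: large subunit with bacterial relatives, large subunit mitochondria-specific, small subunit with bacterial relatives, small subunit mitochondria-specific, and MRPS36) in each line against the mean of the other 14 lines; colours are capped at 2.5 and dots mark called values. Lower calls are most frequent in MDA-MB-157 (22 members) and MDA-MB-436 (12 members), with at most 5 in any other line, and MRPL45 (145 counts in all) is to be read by its counts only.

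MDA-MB-157 carried the most decreases. There 22 of 77 members were lower by at least 1 log2 unit and 2 were higher, against 12.4% and 20% of all genes. Lower by any size were 51 and higher by any size 10, against 26.2% and 31.3%, and the median over members was -0.53 against 0.07 over all genes. The 2 called higher, MRPL45 and MRPL38, are among the members with few reads. The decreases covered 10 of 30 large subunit members with bacterial relatives, 6 of 21 specific to mitochondria, 4 of 15 small subunit members with bacterial relatives and 2 of 10 specific to mitochondria. When TMM used only genes with counts in every library, the median of all genes in this line moved to 0.27, that of the members to -0.32, and 14 were lower. The median of the members lay below that of all genes with both scalings.

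MRPL11, a large subunit protein next to the binding site of translation factors, stood at 7.94, 8.18 and 9.08 CPM in MDA-MB-157 and at 22.2 to 104 CPM (median 46.5) in the other 42 libraries. The groups did not overlap, and the difference was -2.55 ± 0.16 (log2, SE; adjusted p = 4.2e-19, edgeR). MRPS35, a mitochondria-specific protein of the small subunit, was at 40.8, 41.1 and 44.9 CPM against 99.5 to 353 elsewhere, a difference of -2.24 ± 0.11 (adjusted p = 4.2e-23, edgeR). MRPL51, a mitochondria-specific protein of the large subunit, was at 46.8, 39.0 and 42.2 CPM against 93.5 to 306, a difference of -2.11 ± 0.14 (adjusted p = 2.7e-18, edgeR). MRPL57 at -1.87 ± 0.16 and MRPL1 at -1.85 ± 0.12 followed. For MRPL11, MRPS35, MRPL51, MRPL57 and MRPL1, no other library reached down to those of MDA-MB-157.

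MRPL11, MRPL51 and MRPL1 were also the members whose levels tracked the mean of the other members most closely over the 15 lines, with r = 0.829, 0.788 and 0.778. All had their lowest value in MDA-MB-157, which enters these correlations.

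Other mitochondrial genes in MDA-MB-157 did not all move this way. Of all genes in this line, 26.2% were lower and 31.3% higher by any size. All 4 mitochondrial ribosomal proteins with other symbols (CHCHD1, AURKAIP1, PTCD3 and GADD45GIP1) were lower at any size, with a median of -0.69. Of 24 tested assembly factors of the mitochondrial ribosome 11 were lower and 2 higher (median -0.08), and of 16 mitochondrial translation factors 7 were lower and 3 higher (median -0.10). Of 20 tested mitochondrial aminoacyl-tRNA synthetases 12 were lower and 4 higher, and of 34 complex I nuclear subunits 20 were lower and 5 higher. Of the 13 mRNAs of the mitochondrial genome, which these ribosomes translate, 11 were higher by at least 1 log2 unit (median 1.40) and none was lower, against 20% of all genes higher. This was not particular to MDA-MB-157. In BT-549 10 of the 13 were higher by that size and none was lower (median 1.66), in Hs578T 5 and in MDA-MB-231 4. The 13 mRNAs made up 0.449% of counts in MDA-MB-157, the highest mean of any line, with 0.379%, 0.574% and 0.392% in its libraries. Single libraries of other lines overlapped with these, at 0.641% in Hs578T replicate 2 and 0.561% in BT-549 replicate 2. This share also varied within lines, since BT-549 replicate 3 held 0.134% and Hs578T replicate 1 held 0.082%. Epithelial markers were low in this line and the summed mesenchymal markers stood at 4844 CPM, with the fibroblast markers at 425 CPM. The other lines with the highest mesenchymal sums were Hs578T (7257 CPM), BT-549 (3436 CPM) and HCC1395 (3105 CPM). Their medians over members were -0.16, 0.19 and 0.09. The part of the cell types behind these markers in the members' levels was not tested.

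**Figure D3:**
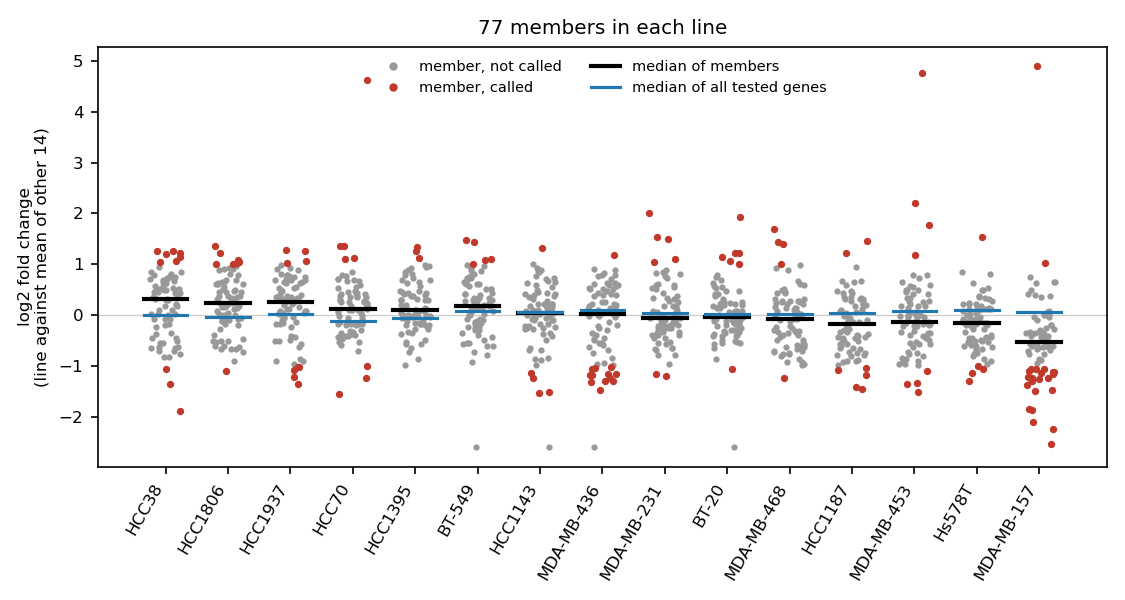
Log2 fold change of the 77 members in each line against the mean of the other 14 lines (points; red points are called), with the median of members (black bars) and of all tested genes (blue bars). The members' median falls to -0.53 in MDA-MB-157 and is highest in HCC38 at 0.32.

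In MDA-MB-436, 12 members were lower and 1 higher, against 10.9% and 16.4% of all genes. The median over members was 0.03 and that of all genes 0.09, so the decreases did not come with a shift of the whole set. MRPL21, MRPL36, MRPL48, MRPL57 and MRPS10 were called lower in both MDA-MB-436 and MDA-MB-157. The share of all genes lower in both lines was not computed, so this overlap cannot be read as large or small. MRPL40, a large subunit protein, was at 19.7, 18.9 and 16.9 CPM, overlapping only with HCC1187 among the other lines, a difference of -1.47 ± 0.15 (adjusted p = 8.8e-12, edgeR). MRPS5, whose bacterial relative lies at the entry of the mRNA channel, was the member higher in MDA-MB-436, at 289, 293 and 246 CPM against at most 220 elsewhere (1.18 ± 0.09).

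In HCC38, 7 members were higher and 3 lower, against 13.8% and 10.2% of all genes, and the median over members was 0.32 against 0.01. Increases included MRPL57 (1.26 ± 0.10), MRPL11 (1.22 ± 0.10) and MRPL46 (1.2 ± 0.12). HCC1806 had 7 higher and 1 lower, against 15.9% and 13.7%. With TMM from genes with counts in every library, the 7 fell to 2. MRPL43 led there, at 68.8, 66.5 and 61.1 CPM against at most 50.6 in any other line (1.37 ± 0.10), and 32.7% of its exon bases overlap SEMA4G on the opposite strand.

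In HCC1187, 5 members were lower and 2 higher, against 12.5% and 16.4%, and without replicate 1 of each line 12 were lower. MRPS6, whose bacterial relative sits at the platform of the small subunit, was at 15.8, 23.1 and 13.8 CPM there and at 22.0 to 135 CPM elsewhere (-1.46 ± 0.20). In Hs578T, 4 members were lower and 1 higher, against 9.57% and 20.9%. Without the thin library Hs578T replicate 2, 1 was lower and 2 were higher.

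Members that lie close together on a chromosome often had similar profiles over the lines. The table holds 26 pairs of tested members within 5 Mb, with a median Pearson r over the 15 lines of 0.581, and r was above 0 in 24. For 137 pairs on the same chromosome but farther apart the median was 0.216, and for 2763 pairs on different chromosomes it was 0.075. The median over all pairs of tested genes was -0.002 and that over cytosolic ribosomal protein genes 0.214. Both take pairs at any distance. Other genes within 5 Mb of each other were not examined, so a trait of the members cannot be told from one of neighbouring genes at large. Several of the 26 pairs also share a member. The pairs described next were picked from those with higher r. DAP3 and MRPL24, 998 kb apart, had r = 0.101, and MRPL24 and MRPL9 had -0.008. Points in each correlation share libraries and depth. Without MDA-MB-157 the median over all member pairs moved from 0.081 to 0.044.

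MRPL58 and MRPS7 lie 240 kb apart on chromosome 17 and had r = 0.907. MRPL58, a peptidyl-tRNA hydrolase that became part of the large subunit, was at 209, 200 and 187 CPM in MDA-MB-453 and at 20.1 to 79.4 CPM elsewhere (2.20 ± 0.08, adjusted p = 4.3e-27, edgeR). MRPS7, which binds the small subunit RNA, was at 352, 275 and 268 CPM against at most 176 (1.78 ± 0.10). Both were highest in MDA-MB-453 without overlap with any other line, and their r without this line was not computed. MRPS23, on the same chromosome, was lower in MDA-MB-453, at 54.8, 36.0 and 34.3 CPM against 56.3 to 236 (-1.51 ± 0.13).

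On chromosome 6, MRPL14 and MRPS10 lie 1896 kb apart and had r = 0.774. In MDA-MB-231, MRPL14 was at 145, 97.2 and 103 CPM against at most 49.2 elsewhere (2.00 ± 0.12, adjusted p = 1.2e-19, edgeR). MRPS10 was at 491, 487 and 494 CPM against at most 295 (1.53 ± 0.10). MRPL2, on the same chromosome, was also called higher in MDA-MB-231, at 41.6, 65 and 61.2 CPM (1.5 ± 0.11). MRPS18A, which lies between MRPS10 and MRPL14, was at 52.6, 50.9 and 52.6 CPM and rose by 0.34 ± 0.12 (adjusted p = 0.014, edgeR), short of the size limit.

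MRPL46 and MRPS11 are transcribed away from each other across the 33 bases printed above and had r = 0.856. In HCC1937, MRPS11 was at 13, 15.8 and 12.5 CPM against 18.7 to 60.9 elsewhere (-1.36 ± 0.15), and MRPL46 at 5.40, 5.56 and 4.43 CPM against 6.03 to 28.4 (-1.22 ± 0.16). Both were the lowest of all lines, without overlap. HCC1937 had 5 members lower and 4 higher in all, against 10.8% and 14.5% of all genes, and over the alternatives tried 2 to 7 were lower and 2 to 7 higher. MRPL47 led the increases there, at 221, 203 and 163 CPM against at most 135 (1.29 ± 0.10).

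On chromosome 1, MRPL9 and MRPS21 had r = 0.673. Both were highest in HCC1187, at 284, 257 and 226 CPM for MRPL9 (1.22 ± 0.08) and 208, 156 and 170 CPM for MRPS21 (1.46 ± 0.09). Both were also called lower in HCC1937. MRPS21 was lowest in MDA-MB-231 (-1.21 ± 0.12), where MRPL9 was not called. On chromosome 9, MRPL41 and MRPS2 had r = 0.722 and were lowest in HCC1143, with MRPS2 at 3.08, 5.60 and 3.16 CPM (-1.54 ± 0.20) and MRPL41 at 5.47, 6.23 and 4.82 CPM (-1.52 ± 0.19). Single libraries of other lines overlapped with them. Fitted within the lines of its own sequencing runs only, MRPS2 in HCC1143 differed by -0.93. Both were called higher in BT-549 and BT-20.

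**Figure D4:**
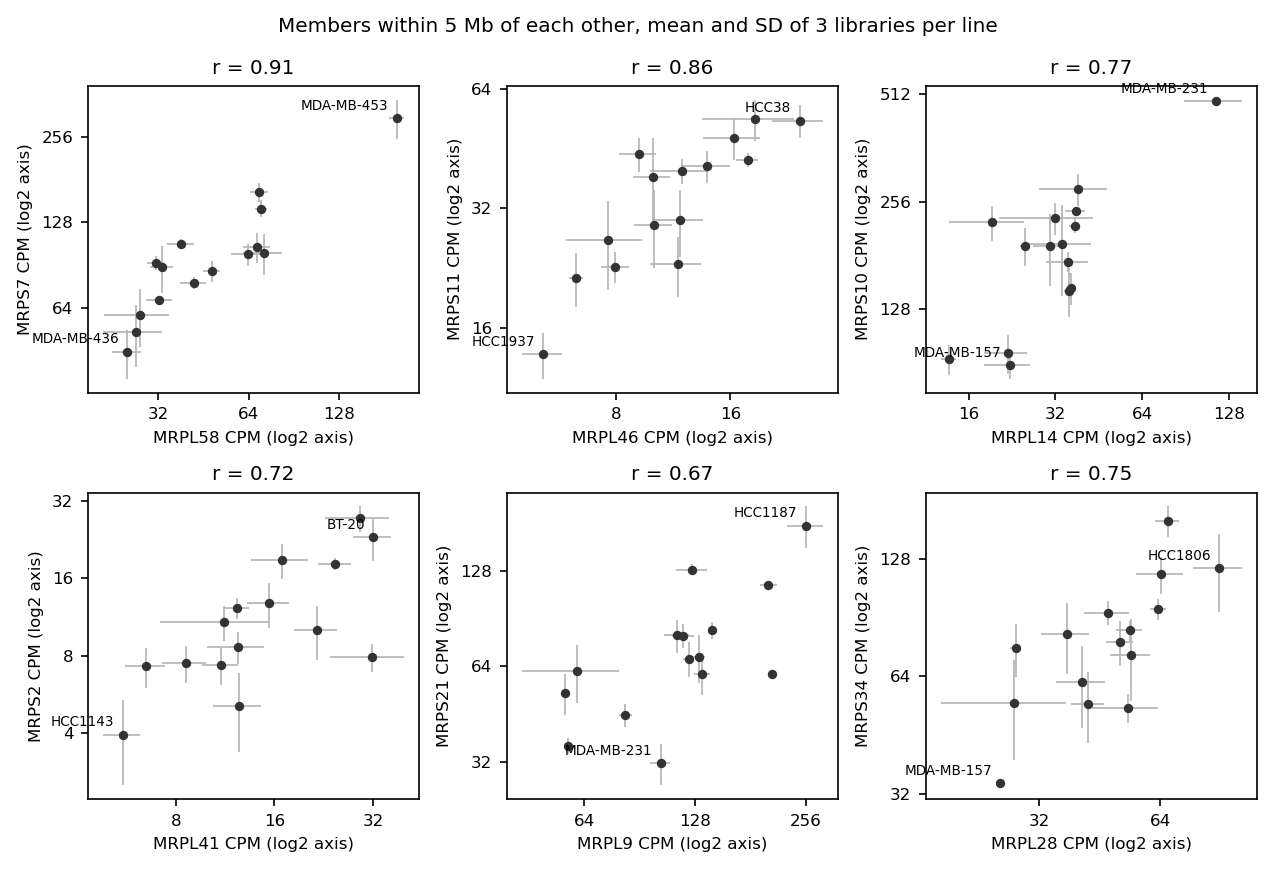
Mean CPM of each line for 6 pairs of members within 5 Mb of each other, picked from those with higher r. Both axes are log2-scaled and bars are SD over 3 libraries. Each panel gives r over the 15 lines and names the line highest for the gene on the horizontal axis and the line lowest for the gene on the vertical axis, and MDA-MB-453 stands alone for MRPL58 and MRPS7.

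The nearest other genes were examined for the member with the largest called change in each direction in each line, using the 5 tested protein-coding genes on each side. Counts without a stated size are of any size at an adjusted p under 0.05. Over all genes and lines, 30.4% of combinations were higher and 23.9% lower by any size, and 16.2% were higher by at least 1 log2 unit. Examples with many and with few moving neighbours follow, not every member examined. MRPL4, a large subunit protein at the polypeptide exit tunnel, was at 48.6, 48.0 and 54.6 CPM in MDA-MB-468 against at most 31.8 elsewhere (1.70 ± 0.10). All 10 of its neighbours were higher in that line by at least 1 log2 unit (median 1.98). MRPS17 in BT-20 was at 40.5, 33.9 and 38.0 CPM against at most 27.9 (1.93 ± 0.11), and all 10 neighbours were higher at any size (median 1.46). MRPS11 in HCC1937 had 9 of 10 neighbours lower (median -1.63).

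MRPL34 in HCC38 was at 5.58, 6.62 and 5.91 CPM against 11.7 to 42.6 (-1.88 ± 0.18), and 9 of 10 neighbours were lower (median -1.30). MRPL57 in HCC1806 had 10 of 10 lower (median -1.07). MRPL13, the member nearest to MYC on chromosome arm 8q, was lowest in MDA-MB-468 at 71.2, 82.3 and 79.0 CPM, against 78.2 to 354 elsewhere (-1.24 ± 0.13), with 7 of 10 neighbours lower and 1 higher (median -1.24). MRPL40 moved with its neighbours both ways, since 8 of 10 were higher in HCC1143, where it was higher by 1.32 ± 0.11, and 6 of 10 were lower in MDA-MB-436.

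Other extremes did not share their neighbours' change to this extent. MRPL11 in MDA-MB-157 had 6 of 10 neighbours lower and 3 higher (median -0.59, against -2.55 for MRPL11 itself). MRPS30, a mitochondria-specific protein of the large subunit despite its symbol, was at 26.6, 33.3 and 32.5 CPM in HCC70 against 52.0 to 194 (-1.55 ± 0.10), with 5 neighbours lower and 3 higher (median -0.30). MRPS6 in HCC1187 had 4 lower and 2 higher (median -0.08). Of the 4, 3 were lower by at least 1 log2 unit, against 12.5% of combinations over all genes and lines. SLC5A3 was among them (-1.39 ± 0.15, against -1.46 for MRPS6), and it shares 6.35% of the exon bases of MRPS6 on the same strand. Gene copy number was not measured here, and its part in these changes was not tested.

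The MRPS18 symbol covers paralogues that take different places in the ribosome. MRPS18A, a large subunit protein, ranged 3.81-fold, from 19.3 ± 1.9 CPM in HCC1187 to 74.7 ± 11.5 in HCC1937 (SD, n = 3). MRPS18C, the small subunit protein closest to the bacterial one, ranged 2.70-fold, from 45.8 ± 11 CPM in MDA-MB-436 to 121 ± 2.3 in MDA-MB-231. MRPS18A was called lower in HCC1187 and MRPS18C was called in no line. MRPS36 ranged 2.58-fold, from 7.12 ± 3.37 CPM in Hs578T to 17.2 ± 1.2 in MDA-MB-436, and was called in no line.

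The series title concerns breast cancer cells with high MYC, so the members were related to MYC mRNA over the 15 line sums. MYC drives growth programmes that include ribosome production. Log2 CPM of MYC ran from 4.10 (MDA-MB-453) and 5.08 (MDA-MB-157) to 7.62 in MDA-MB-231. At an adjusted p under 0.05 no member rose with MYC and none fell (edgeR, and DESeq2 likewise), against 0.00376% and 0.143% of 26615 genes. At an unadjusted p under 0.05, 6 members rose and 2 fell, against 2.68% and 3.39% of genes.

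Slopes were positive for 64 of 77 members (83.1%) and for 51.3% of all genes, with medians of 0.15 and 0.01 log2 units per log2 unit of MYC. Large subunit members with bacterial relatives had 28 of 30 positive slopes (median 0.22) and those specific to mitochondria 15 of 21 (median 0.09). In the small subunit these were 12 of 15 (median 0.16) and 8 of 10 (median 0.12). The 75 cytosolic ribosomal protein genes had 67 (median 0.23). Complex I nuclear subunits had 16 of 34 (median -0.03). Without MDA-MB-157, which was low in both MYC and the members, 53 members had positive slopes and the median was 0.08. The mean scaled level of the members correlated with MYC with r = 0.504 and rho = 0.425 over 15 lines, and with r = 0.309 and rho = 0.247 without MDA-MB-157 and MDA-MB-453.

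MRPS10 had the smallest p of a rising member, with a slope of 0.59 ± 0.17 (SE; adjusted p = 0.33, edgeR). Its level was lowest in MDA-MB-157 at 90.2, 81.5 and 96.5 CPM and highest in MDA-MB-231, the lines with the second lowest and the highest MYC. MRPS23 had 0.61 ± 0.20 (adjusted p = 0.47, edgeR) and MRPL14 0.49 ± 0.19 (adjusted p = 0.68, edgeR). Over the alternatives tried, the slope of MRPL14 lay between 0.18 and 0.61. It was 0.20 without MDA-MB-231, the line with the most MYC and the most MRPL14, and 0.48 to 0.61 with any other single line left out. MRPL58 had -0.45 ± 0.19 (adjusted p = 0.74, edgeR) and MRPS7 -0.36 ± 0.18 (adjusted p = 0.83, edgeR). Without MDA-MB-453, the line with the least MYC and the most MRPL58 and MRPS7, these slopes were 0.14 and 0.07. MRPL45 had the smallest p of all members (slope -2.60 ± 0.60, adjusted p = 0.14, edgeR), from 145 counts that lay almost wholly in 3 lines. With sequencing run as a block its slope was -1.63 and passed the adjusted threshold, as did -2.46 without HCC70. MRPL45 passed the filter on low counts only through those 3 lines and has no usable level, so none of these slopes can be read as a relation to MYC.

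**Figure D5:**
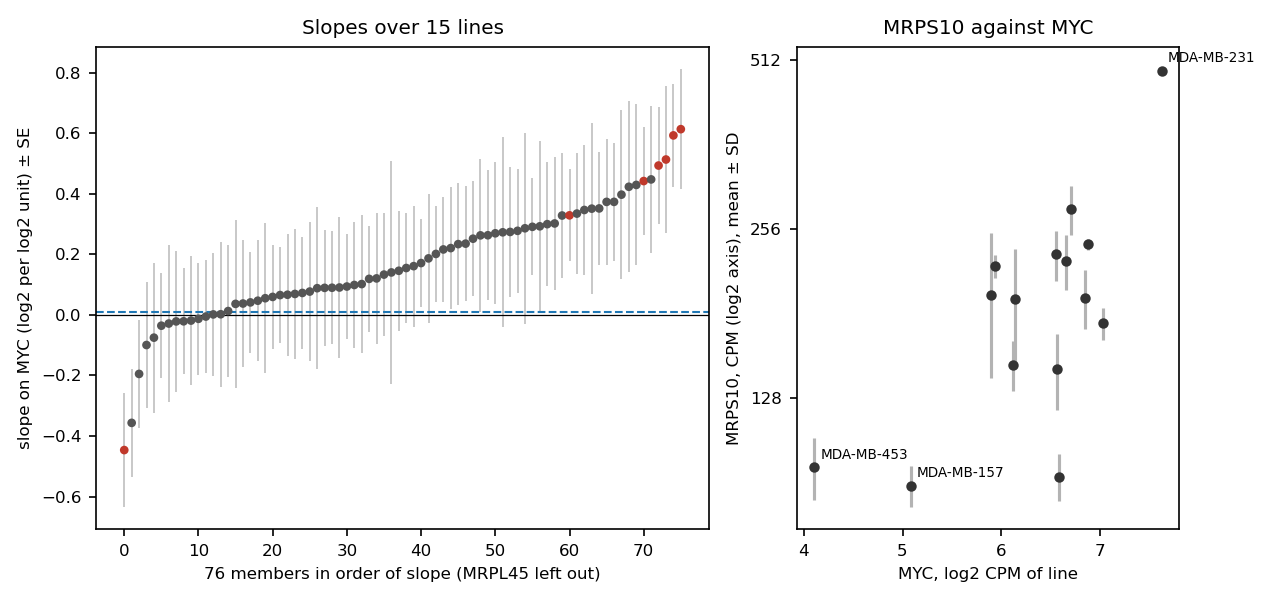
Left, slope of 76 members on MYC over 15 line sums with SE, in order of slope (red, unadjusted p under 0.05; dashed line, median slope of all genes at 0.01; MRPL45 left out). Right, mean CPM ± SD of MRPS10 against log2 CPM of MYC by line, where MDA-MB-231 is highest for both.

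The mean level of the members was also set beside other mitochondrial lists over the lines. With mitochondrial translation factors r was 0.655 (rho 0.707), and 0.653 without MDA-MB-157 and MDA-MB-453. With complex I nuclear subunits it was 0.65 (rho 0.443), and with the mRNAs of the mitochondrial genome -0.538 (rho -0.4). Without MDA-MB-157 alone these r were 0.655 for translation factors, 0.453 for complex I and -0.347 for the mitochondrial mRNAs, and without both lines complex I had 0.629 and the mitochondrial mRNAs -0.328. For mitochondrial ribosomal proteins with other symbols r was 0.637, for assembly factors 0.525 and for mitochondrial aminoacyl-tRNA synthetases 0.525. Without MDA-MB-157 and MDA-MB-453 these fell to 0.323, 0.366 and 0.266. All points share libraries and scaling.

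Lines in L-15, a medium with galactose and pyruvate in place of glucose, were compared with lines in RPMI 1640 (5 line sums against 8, edgeR). No member was called in either direction, as for all genes (0.0% each way). At an unadjusted p under 0.05 no member was higher and 9 were lower, against 5.83% and 5.6% of genes. The fold was below 0 for 58 of 76 tested members, with a median of -0.24 against -0.03 for all genes, and -0.13 without MDA-MB-157. The medium goes with the origin of the lines, since all 5 lines in L-15 are from the MDA-MB series and none of the 8 in RPMI 1640 is, so medium and line origin cannot be told apart.

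MRPL20, a large subunit protein with a bacterial relative, had the smallest p. Its line means in L-15 were 50.1 CPM in MDA-MB-157, 53.4 in MDA-MB-231, 41.1 in MDA-MB-436, 61.1 in MDA-MB-468 and 91.9 in MDA-MB-453, and those in RPMI 1640 ran from 87.8 in HCC1187 to 180 in HCC70. The groups overlapped only through MDA-MB-453, and the difference was -1.05 ± 0.29 (log2, SE; adjusted p = 0.28, edgeR). MRPL3 had -0.89 ± 0.29 (adjusted p = 0.32, edgeR) and MRPL1 -1.05 ± 0.35 (adjusted p = 0.33, edgeR). In the other direction MRPS6 had 0.65 ± 0.34 (adjusted p = 0.49, edgeR), MRPL23 0.49 ± 0.38 and MRPL58 0.52 ± 0.45. Leaving out a single line moved each of these: MRPS6 was at 0.33 without MDA-MB-468, MRPL23 at 0.29 without MDA-MB-231 and MRPL58 at -0.21 without MDA-MB-453. DESeq2 and a fit with sequencing run as a block each called MRPL20 and MRPL1 lower. The share of all genes called by these fits was not computed, so the calls cannot be read as many or few.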

How the data were processed

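Per the labels' protocols, total RNA was depleted of ribosomal RNA with Ribo-Zero Gold and made into ScriptSeq v2 libraries. Per the submitters' processing notes, bcl2fastq 2.20.0.422, FastQC, MultiQC, Trimmomatic, STAR and featureCounts were used with GRCh38.p12; the remaining versions, annotation release and strand setting were not given in the sources used here. Raw counts per gene and library were deposited by the authors, and all 45 columns were used. No blank or summary rows entered the totals.

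Identifiers were matched to GENCODE 29 without version suffix (90.4% matched; the rest held 0.0785% of counts). CPM, log2 CPM (prior count 2) and tests came from edgeR 4.0.16 (R 4.3.3) with TMM scaling, filterByExpr (minimum count 10, minimum total 15) and quasi-likelihood F tests fitted on all genes, with Benjamini-Hochberg adjustment at 0.05, two-sided. An SE is the estimate divided by the square root of its F statistic. Contrasts by line used 45 libraries, and MYC slopes and media used sums over the 3 replicates of a line. The media of BT-20 and Hs578T held 1 line each and were not compared. Scores of a list average log2 CPM scaled to SD 1 over lines. Alternatives were RLE scaling, TMM from genes with at least 10 counts in every library, no filter, DESeq2 1.42.0, single replicates or lines left out, subsets of runs, and run as a block (limma 3.58.1). The scripts were tested on simulated data.

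The labels give a batch (sequencing run) that follows the replicate number in 11 lines (replicates 1, 2 and 3 came from runs 3, 4 and 5), so libraries of these lines with the same number share a run, while HCC1143, HCC38, Hs578T and MDA-MB-231 came from runs 1 and 2. Deviations of libraries from their line means had a median correlation of 0.056 within a run and -0.030 between runs. Members and lists were chosen with earlier results of these data known. Named members are those with the widest and narrowest ranges, the largest called change in each direction in each line, the smallest p on MYC and medium in each direction, the 3 closest to the mean of the others, and the MRPS18 paralogues, MRPS36, MRPL13 and DAP3. Members beside these were named after their values were seen, as near pairs, calls shared by lines, thin members or further calls in a line.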

Additional observations from a re-analysis of the deposited data

Results flagged for a closer look

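Within the lines of each medium, 6 members with the smallest p for medium and the summed level were examined for a single line standing apart, in 14 groups of 5 or 8 lines. Chance alone would give about 1 in 20 groups. In the lines in RPMI 1640, MRPS6 was at 4.09 log2 CPM in HCC1187 and at 5.20 to 6.11 in the other 7. In the lines in L-15, the summed level of the members was 3408 CPM in MDA-MB-157 and 4929 to 5461 in the other 4.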

How the results depend on the processing

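The 77 members that differed among lines were 77 under every alternative, and 72 after leaving out members with under 10 counts in a library, an alternative chosen after seeing the data. The same step gave 47 higher and 62 lower combinations of member and line. Without the limit on size these were 376 and 337. Leaving out replicate 1, 2 or 3 gave 54 to 64 higher and 65 to 74 lower, and a replicate block by run gave 62 and 73. On MYC, 0 members rose and 0 fell under all alternatives except for 1 that fell (MRPL45) with the replicate block and without HCC70, so the range over single lines left out was 0 to 1. By medium, DESeq2 called 2 lower and the replicate block 2 lower, without a computed share of all genes to set beside them. With single lines or replicates left out, the slope of MRPL58 ran from -0.53 to 0.14, that of MRPS7 from -0.46 to 0.071 and the medium difference of MRPL58 from -0.21 to 0.72; signs turned only without MDA-MB-453. Among single genes, MRPS2 in HCC1143, MRPS28 in HCC38 and MRPS28 in BT-20 fell short of 1 log2 unit when only lines of their own runs were fitted (-0.93, 0.73 and -0.84), as did MRPS28 in BT-20 without replicate 2 (-0.92). The cause of these changes was not tested. No level can be given for MRPS12, MRPS18B and MRPL45, whose near-empty stretches have a cause that was not tested. Low counts leave MRPL12, MRPL53, MRPS24 and MRPL38 with wide errors. Replicates of a line may be technical. The 11 lines of runs 3 to 5 and the other 4 share no run, so run and line cannot be told apart between them.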
